A study of Mus musculus with 9 samples.

Results

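The 26S proteasome is the protease that degrades ubiquitin-tagged proteins, and its subunits were followed here in endothelial cells (ECs) sorted from mouse lungs with or without breast cancer metastases. The gene list was set by subunit and takes no gene by its value, but it was chosen with earlier results of these data known. It holds 35 genes, namely 7 alpha and 7 beta subunits of the 20S core, 6 ATPases, 3 other base subunits and 8 lid subunits of the 19S particle, and 4 activators. Probe sets that name a member alone measured 34 of the 35 genes, out of 18193 genes in all, through 77 of the 34945 probe sets of a single gene. The remaining member, Psme2, had 1 probe set, which also names Psme2b, so it was given no test. That shared probe set read 12.21, 11.90 and 12.07 on the log2 scale in the healthy arrays, 12.19, 12.27 and 12.26 with metastasis and IgG, and 12.24, 12.24 and 12.20 with metastasis and anti-VEGF.

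All mice were NSG, an immunodeficient strain that lacks functional lymphocytes, aged 6 to 8 weeks at the start. In 2 of the 3 groups, MDA-MB-231-LM2 cells, a human breast cancer line selected for growth in the lung, had been injected into the tail vein, and the lungs were taken on day 21. These mice received control IgG (metastasis IgG) or the anti-VEGFA antibody B20.4.1.1 at 10 mg/kg (metastasis anti-VEGF), and the third group was age-matched healthy mice given control IgG (healthy IgG). No healthy mice given the antibody are among the samples. Each group has 3 arrays, which the labels call biological replicates, and with so few arrays all errors are wide. ECs were sorted from whole lungs as CD31-positive cells without leukocyte, epithelial, fibroblast, pericyte and tumor cell markers, so they come from tumor-bearing and tumor-free tissue alike. The metastatic mice had been chosen for a comparable tumor load.

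The 20S core is a barrel whose outer alpha rings gate the entry and whose inner beta rings hold the peptidase sites. The 19S particle caps the barrel. Its base, with a ring of ATPases, unfolds substrates and feeds them in, and its lid removes the ubiquitin chains. The activators of the Psme family can dock on the barrel in place of the 19S particle. Cells exposed to interferon gamma replace the peptidase subunits with the inducible subunits Psmb8, Psmb9 and Psmb10, which shape peptides for MHC class I. Nfe2l1 (NRF1) is the factor best known for raising proteasome genes together when the protease is overloaded.

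Upstream sequence is shown for the members that passed the test, and for Psmb5 and Psmb6, which hold an antioxidant response core (a motif bound by NRF factors). Each line is the 120 bases before the start of the gene in RefSeq, build GRCm38.p6, written 5′ to 3′ on the strand of the gene. Capitals mark matches to 3 motifs searched on both strands, namely TGACNNNGC (antioxidant response core), GAAANNGAAA (core of the interferon-stimulated response element) and CCAAT.
Psmc4, chr7:28050093-28050212, minus strand: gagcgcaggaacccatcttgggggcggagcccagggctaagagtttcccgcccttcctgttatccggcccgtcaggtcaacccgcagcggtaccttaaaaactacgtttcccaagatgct
Psmd4, chr3:95042615-95042734, minus strand: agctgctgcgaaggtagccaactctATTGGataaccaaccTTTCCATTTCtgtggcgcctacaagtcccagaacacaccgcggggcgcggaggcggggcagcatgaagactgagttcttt
Psmb5, chr14:54617996-54618115, minus strand: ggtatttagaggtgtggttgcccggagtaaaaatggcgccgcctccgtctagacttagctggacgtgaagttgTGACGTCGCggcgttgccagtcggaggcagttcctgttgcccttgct
Psmb6, chr11:70525237-70525356, plus strand: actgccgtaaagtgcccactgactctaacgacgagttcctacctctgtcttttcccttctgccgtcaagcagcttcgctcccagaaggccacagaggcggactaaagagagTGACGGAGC

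A window from 250 bases before to 50 bases after the start was found in RefSeq for 29 of the 35 members. TGACNNNGC was present in 5 of the 29, Psmb5, Psmb6, Psmc6, Psmd12 and Psme4, and in 14% of all genes with a window. GAAANNGAAA was in 3 (Psmb3, Psmd4 and Psme1) against 3.99% of genes, and CCAAT in 11 against 41.1%. The window of Psmc4 held none of the 3. No 2 of the capital stretches printed here overlap, and a match is a stretch of letters and was not tested for binding.

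Most proteasome genes read slightly higher in ECs from metastatic lungs than in those from healthy lungs, and few of these differences passed the test. In metastasis IgG against healthy IgG, 30 of 34 members lay above 0, which is 88.2% against 49.8% of all genes. Measured members stood between the 72.3 and 97.9 percentile of mean intensity, so shares of all genes, here and below, are not matched for brightness. The median member difference was 0.15 on the log2 scale, a fold of 1.11, where the median of all genes was -0.0011. In bulk RNA from sorted cells, a change in the mix of cells and a change of RNA per cell cannot be told apart. The test, limma with Benjamini-Hochberg adjustment over all 18193 genes, called 2 members at an adjusted p under 0.05, both higher, against 9.01% of all genes called and 5.55% called higher. At an unadjusted p under 0.05, 12 members were higher and none was lower, where 12.5% of all genes were higher.

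**Figure D1:**
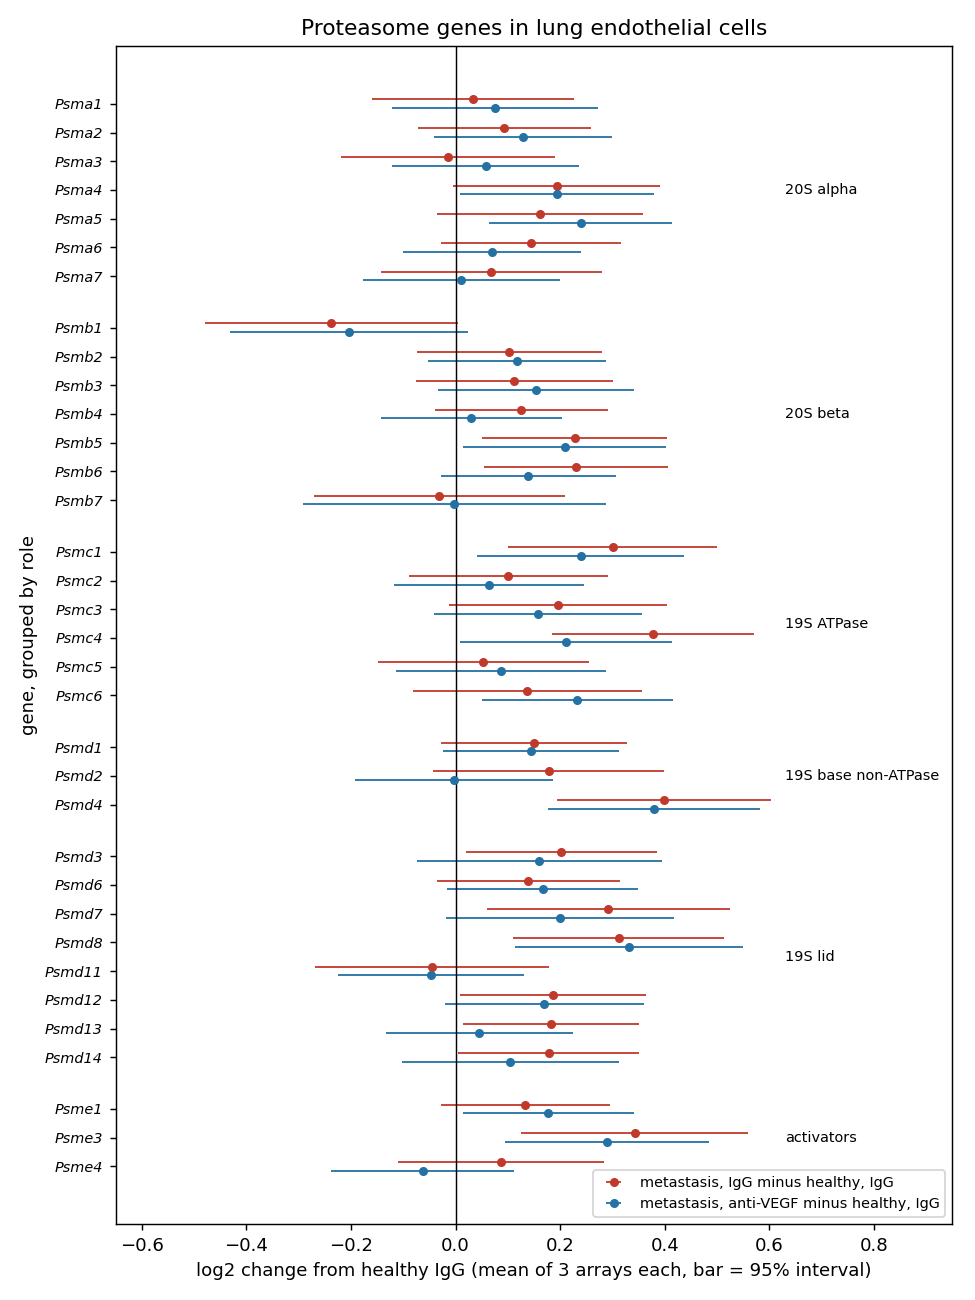
Log2 difference of each of 34 proteasome genes (rows, grouped by role) from healthy IgG, for metastasis IgG (red) and metastasis anti-VEGF (blue), each point the difference of 2 means of 3 arrays and each bar its 95% interval from limma. Points lie mostly to the right of 0 for both colors, from -0.24 for Psmb1 to 0.40 for Psmd4 under IgG.

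Psmd4 is a ubiquitin receptor of the 19S base, which binds the chain on a substrate. Its log2 intensity was 10.70, 10.53 and 10.59 in the healthy arrays, 10.96, 11.12 and 10.93 with metastasis and IgG, and 10.87, 11.03 and 11.06 with metastasis and anti-VEGF. All 6 metastatic arrays lay above all 3 healthy arrays, while the metastatic groups overlapped. The difference from healthy was 0.40 ± 0.09 (SE, 3 arrays against 3; limma adjusted p = 0.03), a fold of 1.32, under IgG and 0.38 ± 0.09 (limma adjusted p = 0.0419) under anti-VEGF. Its other 2 probe sets, which are dimmer, differed by 0.23 and 0.20 under IgG and neither was called on its own. With the mean of the 3, the difference was 0.28 (limma adjusted p = 0.0376) under IgG and 0.23 (0.0707) under anti-VEGF, where the call was lost.

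Psmc4 is one of the ATPases of the ring. Its log2 intensity was 11.29, 11.12 and 11.31 in the healthy arrays, 11.63, 11.67 and 11.56 with metastasis and IgG, and 11.37, 11.54 and 11.43 with metastasis and anti-VEGF. The 3 groups did not overlap, with the anti-VEGF arrays between the others. The difference from healthy was 0.38 ± 0.08 (limma adjusted p = 0.0291), a fold of 1.30, under IgG and 0.21 ± 0.09 (limma adjusted p = 0.219) under anti-VEGF, and the latter did not pass. Its second, dimmer probe set differed by 0.21 under IgG and was not called, and with the mean of both the call was lost (0.29, limma adjusted p = 0.0634).

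Both calls under IgG lie close to the threshold. With 1 array left out, both were called only without metastasis IgG array 3 (limma adjusted p = 0.0458 for Psmc4 and 0.0436 for Psmd4), and Psmd4 also without healthy array 1 (0.048). Leaving out healthy array 2 or 3, or metastasis IgG array 1 or 2, ended both calls, with limma adjusted p from 0.0627 to 0.105, and leaving out healthy array 1 ended that of Psmc4 (0.0662). The differences stayed between 0.32 and 0.45 log2 units in all of these fits.

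**Figure D2:**
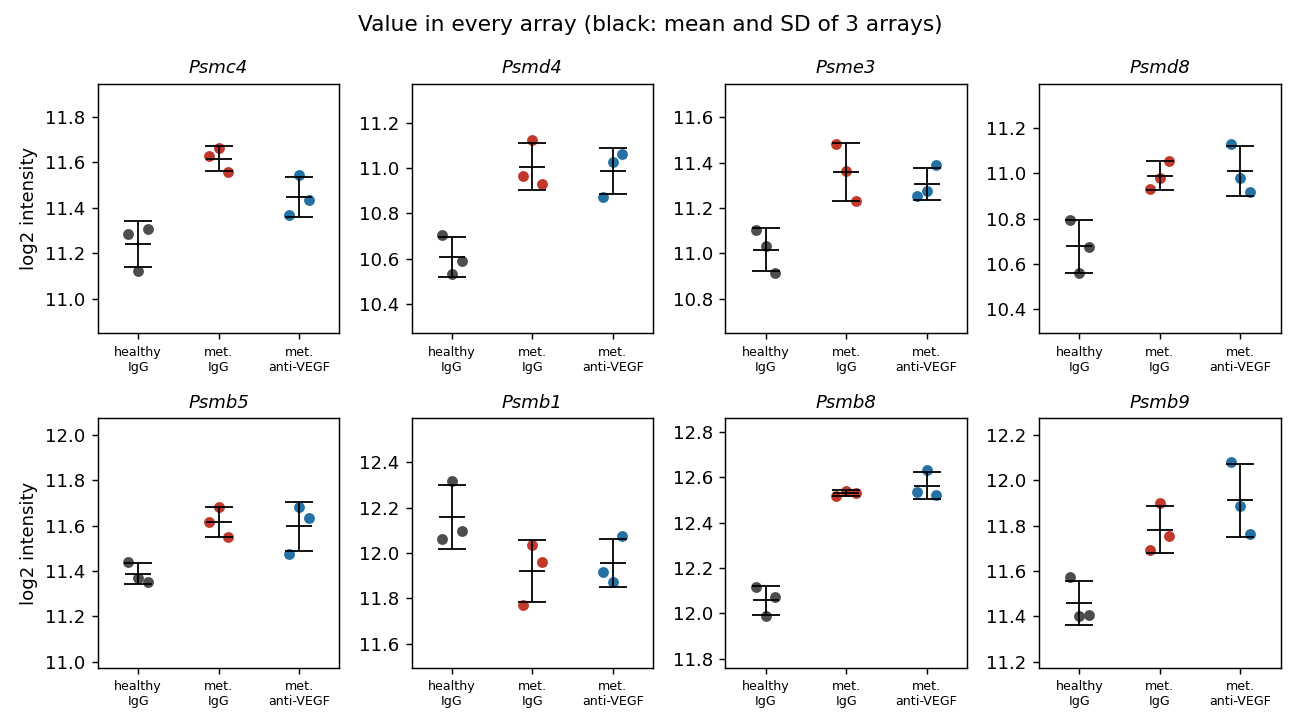
Log2 intensity (vertical axis, 1.1 units high in every panel) of 6 proteasome members and the inducible subunits Psmb8 and Psmb9 in each of 9 arrays, 3 a group, with the group mean and SD in black. Psmc4 and Psmd4 lie higher in every metastatic array than in every healthy one, Psmb1 lies lower under metastasis IgG, and Psmb8 has the largest difference of the 8 genes shown (0.47 under IgG).

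The other base subunits, each by its brightest probe set, also lay above 0. All 6 ATPases lay above 0 under IgG, from 0.05 for Psmc5 to 0.38 for Psmc4, with a median of 0.17. Psmc1, a further ATPase, read 11.27, 11.10 and 11.19 in the healthy arrays and 11.48, 11.59 and 11.40 under metastasis IgG. These arrays did not overlap, but the difference of 0.30 ± 0.09 missed the threshold (limma adjusted p = 0.0742), and its second probe set differed by -0.04. Psmc3, at 0.20, also had no overlap, whereas Psmc2, Psmc5 and Psmc6 overlapped. The scaffold subunits Psmd1 and Psmd2 differed by 0.15 ± 0.08 and 0.18 ± 0.10 (limma adjusted p = 0.299 and 0.318). The second probe set of Psmd2, which is dim, differed by -0.31 (limma adjusted p over all probe sets = 0.225), and the mean of both was -0.067, so the direction for Psmd2 is uncertain.

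The lid, whose subunit Psmd14 is the deubiquitinase and Psmd7 its partner, had 7 of 8 members above 0 and a median of 0.18 under IgG. None was called, and 6 had an unadjusted p under 0.05. Psmd8 read 10.79, 10.56 and 10.67 in the healthy arrays, 10.93, 10.98 and 11.06 under metastasis IgG, and 11.13, 10.98 and 10.92 under anti-VEGF. Its difference from healthy was 0.31 ± 0.09 under IgG (limma adjusted p = 0.0681) and 0.33 ± 0.09 under anti-VEGF (0.0825), without overlap in either. Psmd7 differed by 0.29 ± 0.10 (limma adjusted p = 0.123), but its other 2 probe sets differed by -0.01 and -0.31. Psmd14 rested near 12.17 in all 3 metastasis IgG arrays (12.16, 12.17 and 12.17), above the healthy values of 11.92, 12.05 and 12.00, with a difference of 0.18 ± 0.08 (limma adjusted p = 0.199). The lowest lid gene was Psmd11, which clamps the lid to the core, at -0.05 ± 0.10 (limma adjusted p = 0.84), and its 8 probe sets ranged from -0.07 to 0.19.

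In the 20S core, 11 of 14 members lay above 0 under IgG, with a median of 0.11, and none was called. The median of the 17 members of the 19S particle was 0.18, and 16 of them lay above 0. The difference between the particles was not tested. Among the subunits with a peptidase site, Psmb5 (chymotrypsin-like) read 11.44, 11.37 and 11.35 in the healthy arrays and 11.61, 11.68 and 11.55 under metastasis IgG. Psmb6 (caspase-like) read 11.75, 11.80 and 11.84 against 12.06, 12.07 and 11.95. Neither gene overlapped between these groups, and both differed by 0.23 ± 0.08 (limma adjusted p = 0.116 and 0.113). Psmb7 (trypsin-like) overlapped fully, with a difference of -0.03 ± 0.10 and healthy arrays that spread from 10.67 to 11.03.

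Psmb1, a beta subunit without a peptidase site, was the single member that read lower in every metastasis IgG array. It read 12.06, 12.32 and 12.10 in the healthy arrays, 11.77, 12.04 and 11.96 under metastasis IgG, and 11.92, 11.87 and 12.08 under anti-VEGF. The difference of -0.24 ± 0.11 did not pass (limma adjusted p = 0.222). A second bright probe set of Psmb1 differed by 0.11 in the other direction and a dim one by -0.05, so the probe sets of this gene disagree. The alpha subunits lay between -0.01 for Psma3 and 0.19 for Psma4 (limma adjusted p = 0.947 and 0.224), with Psma5 at 0.16 (0.311).

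Among the activators, Psme3, the nuclear form of the ring-shaped activator, read 11.10, 11.03 and 10.91 in the healthy arrays, 11.48, 11.36 and 11.23 under metastasis IgG, and 11.25, 11.28 and 11.39 under anti-VEGF. All metastatic arrays lay above the healthy ones, and the difference was 0.34 ± 0.09 under IgG (limma adjusted p = 0.0635). Its other 2 probe sets differed by 0.31 and -0.13. Psme1, the interferon-induced activator that works with Psme2, read 11.93 in all 3 healthy arrays and 12.06, 12.05 and 12.09 under metastasis IgG. Its difference was small, at 0.13 ± 0.07 (limma adjusted p = 0.308). Psme4, which favors acetylated histones, overlapped between the groups, with a difference of 0.09 ± 0.09. The other 5 probe sets of Psme4 ran from -0.34 to 0.03, the lowest 2 of them without overlap, and the mean of all 6 was -0.11, so its direction depends on the probe set.

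Without regard to the test, 22 members lay higher in all 3 metastasis IgG arrays than in all healthy arrays and 1 lay lower, where 15.4% of all genes lay higher without overlap, 13.6% lower and 29.1% in either direction. The median SD of a member within a group was 0.083, against 0.128 for all genes. The comparison of metastasis anti-VEGF with healthy IgG, which shares the healthy arrays, had 29 of 34 members above 0 (47.8% of all genes), a median of 0.14 and 1 called member, Psmd4, against 6.44% of all genes called and 4.15% called higher. At an unadjusted p under 0.05, 10 members were higher, where 11.3% of all genes were. There, 18 members lay higher without overlap and 0 lower, against 13.8% and 13.1% of all genes. Psma5 and Psmc6 stood at 0.24 and 0.23 and Psme1 at 0.18, and none of these 3 was called (limma adjusted p = 0.113, 0.137 and 0.2). The other 2 probe sets of Psmc6 differed by -0.10 and -0.16 in this comparison, against the direction of the brightest. The call of Psmd4 was kept without anti-VEGF array 1 (limma adjusted p = 0.0371) and ended without any other single array (0.0613 to 0.14).

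**Figure D3:**
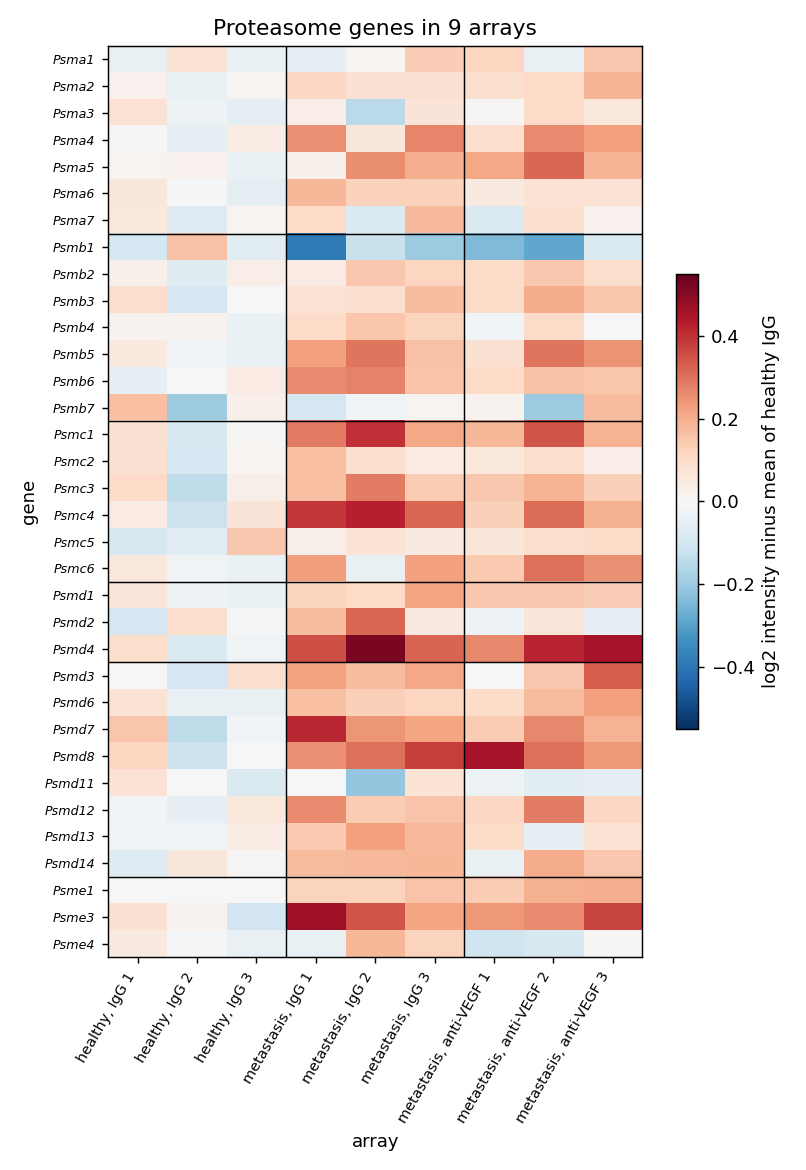
Log2 intensity minus the mean of the healthy IgG arrays (color) for 34 proteasome genes (rows, in the order alpha, beta, ATPase, other base, lid and activator) in 9 arrays (columns). The metastatic columns are mostly red, with Psmb1 the clearest blue row, and the largest deviation is 0.517 in size.

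The level of the list in each array was taken as the median over the 34 members of the value minus the healthy mean. It was 0.05, -0.03 and 0.00 in the healthy arrays, 0.17, 0.14 and 0.16 under metastasis IgG and 0.10, 0.15 and 0.15 under anti-VEGF. Every metastatic array lay above every healthy one by this measure. Arrays of 1 group also differed across many members. Healthy array 1 was the highest of its group for 20 of 34 members, and anti-VEGF array 1 was the lowest of its group for 21.

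Between the metastatic groups, no member passed the test and the differences lay around 0. In metastasis anti-VEGF against metastasis IgG, limma called 0 members and 0 of the 18193 genes (0%). At an unadjusted p under 0.05 it passed 0 members and 1462 genes, or 8.04%. Of the members, 14 of 34 lay above 0, against 48.3% of all genes, and the median was -0.02. No member lay higher without overlap, and 3 lay lower, Psmc4, Psmd13 and Psma6, where 6.2% of all genes lay higher, 6.91% lower and 13.1% in either direction. Leaving out 1 array gave between 0 and 4 members higher without overlap, the most without anti-VEGF array 1.

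Psmc4 had the smallest p of the members, with a difference of -0.17 ± 0.09 (95% interval -0.37 to 0.03, limma adjusted p = 0.681). Psmd2, a scaffold of the base that binds ubiquitin-like domains, read 12.05, 12.20 and 11.93 under IgG and 11.85, 11.95 and 11.84 under anti-VEGF, which overlap, with a difference of -0.18 ± 0.10 (95% interval -0.40 to 0.04). The second probe set of Psmd2 went the other way by 0.45 without overlap (limma adjusted p over all probe sets = 0.488), which is the largest difference of the 77 member probe sets in this comparison, and the mean of both was 0.13. Psme4 differed by -0.15 ± 0.09 (95% interval -0.36 to 0.06), with its other 5 probe sets from -0.12 to 0.20. Psmd13, a lid subunit, differed by -0.14 ± 0.08 (-0.33 to 0.05), with its other 3 from -0.11 to 0.03. For Psmd4 the difference was -0.02 ± 0.10 with a 95% interval of -0.24 to 0.20. Intervals of this width span most of the member differences between metastatic and healthy ECs, so with 3 arrays a group an antibody effect of that size on a single member may not have been detectable.

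**Figure D4:**
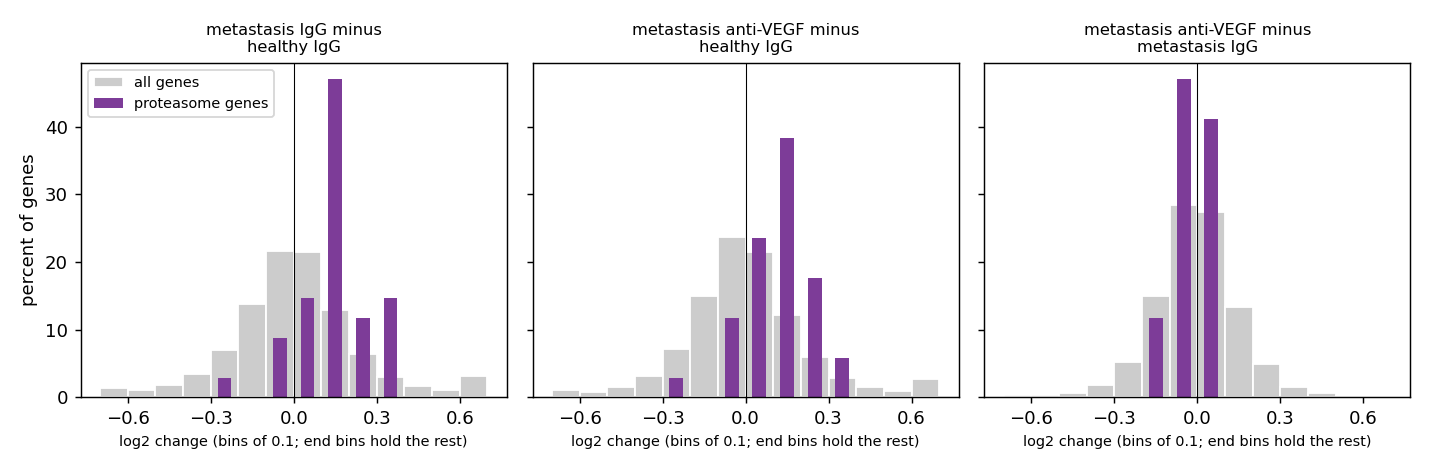
Percent of the 34 proteasome genes (purple, narrow bars) and of all 18193 genes (gray) in each bin of the log2 difference, for 3 comparisons of 3 arrays against 3. The members center right of 0 in both comparisons with healthy IgG (medians 0.15 and 0.14) and around 0 between the metastatic groups (median -0.02).

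Of the inducible subunits, which are not counted among the members, Psmb8 rose in both metastatic groups and Psmb9 under anti-VEGF. Psmb8 read 12.12, 11.99 and 12.07 in the healthy arrays, 12.52, 12.54 and 12.53 under metastasis IgG, and 12.54, 12.63 and 12.52 under anti-VEGF, a gap wider than the spread within any group. It rose by 0.47 ± 0.08 (limma adjusted p = 0.00715) under IgG and by 0.51 ± 0.08 (0.00814) under anti-VEGF, and it stayed called with any single array left out. A second probe set of Psmb8 differed by 0.13 and 0.05 and was not called, and with the mean of both the call under anti-VEGF was lost (0.28, limma adjusted p = 0.113). Psmb9 read 11.57, 11.40 and 11.41 in the healthy arrays, 11.69, 11.90 and 11.76 under IgG and 12.08, 11.89 and 11.77 under anti-VEGF. Its difference from healthy was 0.32 ± 0.09 under IgG, which did not pass (limma adjusted p = 0.0663), and it rose by 0.45 ± 0.10 under anti-VEGF (0.0389). The call of Psmb9 was kept only without anti-VEGF array 3 (0.0423) and ended without any other single array (0.0555 to 0.128). Psmb10 overlapped between all groups, at -0.03 ± 0.08 under IgG and 0.04 ± 0.08 under anti-VEGF (limma adjusted p = 0.894 and 0.843). Between the metastatic groups, the differences of Psmb8, Psmb9 and Psmb10 were 0.03, 0.13 and 0.06, none of which was called. The thymus subunit Psmb11 and the testis subunit Psma8 were not called either.

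Of 10 measured genes of peptide loading and the interferon gamma response, 4 were called higher and none lower under IgG, where 5.55% of all genes were called higher. The 4 are Nlrc5, a transactivator that turns on MHC class I, at 1.37 ± 0.15 (limma adjusted p = 0.00125), the peptide transporter genes Tap1 at 0.53 ± 0.08 (0.00734) and Tap2 at 0.44 ± 0.09 (0.0181), and Gbp2, an interferon-induced GTPase, at 0.36 ± 0.09 (0.0391). The median of the 10 was 0.29, and 9 lay above 0. The exception was Irf1, a transcription factor of the interferon response, which differed by -0.20 without overlap and was not called (limma adjusted p = 0.158). The same number of 4 was called under anti-VEGF, where 4.15% of all genes were called higher, and none was called between the metastatic groups.

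Few genes that build, control or serve the proteasome were called. Of 8 assembly factors, 1 was called under IgG, where 9.01% of all genes were, Psmg3, a chaperone of alpha ring assembly, at 0.39 ± 0.10 (limma adjusted p = 0.0478), but its second probe set fell by 0.58 (0.0224), so the direction for this gene is uncertain. None of the 8 was called in the other comparisons. Of 7 measured associated proteins none was called in any comparison, and the list went both ways. The deubiquitinase Usp14 differed by -0.32 ± 0.10 under IgG (limma adjusted p = 0.0929) and -0.35 ± 0.09 under anti-VEGF (0.0533). Psmf1, an inhibitor of the proteasome, differed by -0.34 under IgG (limma adjusted p = 0.126), while Ecpas, an adaptor, and Txnl1, a thioredoxin-like protein, differed by 0.29 and 0.22 (0.111 and 0.207), each without overlap. None of the 4 measured genes of transcriptional control was called. Nfe2l1 differed by 0.03 ± 0.08 and Nfe2l2 (NRF2), the antioxidant response factor, by -0.04 ± 0.07 under IgG. None of the 7 measured genes that deliver substrates was called, nor was the ubiquitin-activating gene Uba6, the only one measured of 6 ubiquitin supply genes.

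Other signals moved with the groups, and their part in the member differences was not tested. Relative to healthy, the median of 7 dividing-cell genes was 1.96 to 2.28 in the metastasis IgG arrays and 1.23 to 1.65 in the anti-VEGF arrays. All 7 were called under IgG, where 9.01% of all genes were. The median over 8 macrophage markers was 1.14 to 1.44 and 1.01 to 1.57, with 7 of 8 called under IgG, although the sort excludes CD45 and CD11b. The medians of fibroblast, pericyte and epithelial markers were also higher, at 0.50, 0.67 and 0.46 under IgG. Called were 3 of 6, 2 of 5 and 2 of 6. Of the fibroblast genes 4 of 6 lay above 0, with Pdgfra at -0.45 and Dcn at -0.35. Of the pericyte genes 3 of 5 did, with Myh11 at -0.42 and Cspg4 at -0.07. All 6 epithelial genes did, but Epcam and Krt8 stood at only 0.04 and 0.01. In healthy array 3 and metastasis IgG array 2, the fibroblast median was 0.46 and 0.39 and the epithelial median 0.59 and 0.36. The 3 neutrophil markers had a median of 0.65 under IgG with 1 called. Under anti-VEGF their median was 0.89 with all 3 called, where 6.44% of all genes were. The 3 erythroid genes went both ways, with Slc4a1, an anion exchanger of red cells, at 1.77 (limma adjusted p = 0.000176) and Alas2 at -0.73 (0.1) under IgG. Of the 3 platelet genes, Ppbp fell by 0.54 under IgG (limma adjusted p = 0.00876) and Itga2b rose by 0.52 under anti-VEGF (0.00463). Between the metastatic groups, the platelet genes Pf4 and Ppbp differed by 0.47 and 0.40 without overlap and were not called (limma adjusted p = 0.378 for both). The 7 dividing-cell genes had a median of -0.56 there, with 5 lower without overlap, against 6.91% of all genes, and none called. The 4 lymphocyte markers had medians of -0.11 and -0.02 with none called. As for the label of the cells, Cdh5, a junction protein of ECs, read 12.95 to 13.07 in all 9 arrays. Cdh5 stood at the 99.2 percentile of mean intensity, near the top of the scale, where a change may be harder to see. The 8 endothelial markers went both ways, with 4 above 0 and a median of 0.01 under IgG. Emcn, a surface mucin of ECs, rose by 0.43 (limma adjusted p = 0.0393) under IgG and by 0.50 (0.0167) under anti-VEGF, while Kdr, a VEGF receptor, differed by -0.09 and -0.08 without overlap and was not called (0.505 and 0.569). C1qa, a macrophage gene, read 7.07 to 7.48 in the healthy arrays and 9.56 to 10.49 in the metastatic ones. For beta-actin, the 3′ probe set minus the 5′ one, which rises as RNA degrades, was 0.609 to 0.62 in the healthy arrays, 0.488 to 0.555 under metastasis IgG and 0.526 to 0.62 under anti-VEGF. The middle Gapdh control probe set read 12.07 to 12.19 in the healthy arrays, 12.46 to 12.70 under metastasis IgG and 12.39 to 12.55 under anti-VEGF. Its 3′ and 5′ controls were also higher in every metastatic array. The 3′ beta-actin control overlapped, at 13.17 to 13.24, 13.23 to 13.29 and 13.22 to 13.25. Correlations between arrays of 1 group were 0.991 to 0.994, and between groups 0.977 to 0.993.

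Over single probe sets the share above 0 was smaller. Of the 77 member probe sets, 56 lay above 0 under IgG, or 72.7% against 48.6% of all probe sets, with a median of 0.11, and 2 were called, against 7.41% of all. Of 20 members with several probe sets, 8 had all of them on 1 side of 0 under IgG and 9 under anti-VEGF. Between the metastatic groups, 34 of the 77 lay above 0, and none was called (0% of all probe sets). Against healthy, none of the 77 was called under anti-VEGF, where 5.41% of all probe sets were.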

How the data were processed

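RNA of lung ECs from 3 groups of 3 samples was hybridized to Affymetrix Mouse Genome 430 2.0 arrays. Per the study's methods, Chipster was used for RMA, and the authors deposited log2 intensities of 45101 probe sets, used here as they are. RMA fits all arrays together and assumes equal intensity distributions, so a shift shared by all genes cannot be seen. Probe sets without a gene name (9211) or with several (932) were left out. Each gene was read from its probe set with the highest mean over 9 arrays. The fits used lmFit and eBayes (limma 3.58.1, R 4.3.3) without a block, each on the 6 arrays of the groups compared. The threshold was a p under 0.05 after Benjamini-Hochberg adjustment over all genes. Errors are SE of a difference of 2 means of 3 arrays.

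The members and lists were chosen with earlier results of these data known. Genes were named by rule, which took every called member, the 2 highest and the lowest member of each role under IgG, the 4 members of smallest p between the metastatic groups, Psmb8 to Psmb10 and called genes of the other lists. Further genes named in the text were chosen after their values were seen. The fit was tested on simulated data. Alternatives covered the fit, the summary of probe sets, the filter, the normalization, the study's thresholds, and each array left out. Counts above 0 and without overlap under the alternatives were added after seeing the data. Motifs were searched in Python 3.11.15 and figures drawn with matplotlib 3.10.9.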

Additional observations from a re-analysis of the deposited data

How the results depend on the processing

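The median member difference from healthy ECs stayed above 0 in every fit run. Without single arrays it lay between 0.13 and 0.17 under IgG and between 0.12 and 0.16 under anti-VEGF, and members above 0 numbered 29 to 32 and 28 to 30. The mean of each gene's probe sets lowered the median to 0.12 under IgG. Leaving out the suffixed probe sets, those ending in _s_at, _x_at or _a_at, lowered it to 0.081 under anti-VEGF. Whether a suffixed probe set also reads another gene was not examined. Between the metastatic groups the median lay between -0.037 and 0.0049 without single arrays, with 0 members called, 11 to 17 above 0 and 0 to 4 higher without overlap.

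The counts of called members depended on the setting. Under IgG 2 members were called, against 6 with genes below the median level left out, 7 with a variance trend and robust estimation, 1 with the mean of probe sets, 1 without shared suffixes (where Psmd4 has no probe set), 0 by the study's thresholds (log2 change over 0.75) and 0 to 2 without single arrays. Under anti-VEGF 1 was called, against 4, 5, 0, 0, 0 and 0 to 1 in the same order. Calls over all genes, from the main fit on in that order, were 1640, 1664, 2219, 1722, 1387, 507 and 869 to 1478 under IgG. Under anti-VEGF they were 1172, 1357, 1848, 1248, 1016, 430 and 645 to 1139. Calls over all genes thus also rose with the filter and with trend and robust estimation. The filter kept only genes above the median level, so the share of tested genes called rose far more than the count. All measured members were kept by it, and their rise in calls was not tested against that of other genes. The member probe sets called were 2 under IgG, against 6 with the filter, 7 with trend and robust estimation and 0 without any single array. Under anti-VEGF they were 0, against 3 with the filter and 5 with trend and robust estimation. They were 1 with all 9 arrays in 1 fit, 1 with array weights and 0 to 1 without single arrays. In the main fit 7.41% of all probe sets were called under IgG and 5.41% under anti-VEGF. Calls over all probe sets were not counted in the other settings, so these rises have no background share and show nothing particular to the members.

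The labels name no link between same-numbered arrays of different groups beyond the number. Correlations of their deviations from the group means were -0.0757 to 0.0138, against -0.145 to 0.177 for arrays of different number. With 3 arrays a group, these values cannot show whether arrays share a batch. With the replicate number as a block, 0 members were called under IgG (limma adjusted p = 0.0719 for Psmc4 and 0.0718 for Psmd4), 0 under anti-VEGF and 0 between the metastatic groups, and 0 member probe sets were called under IgG.

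Small differences changed sign. With the mean of probe sets, Psmd2 came to -0.067, Psmd7 to -0.011, Psmd11 to 0.055, Psma3 to 0.019 and Psme4 to -0.11 under IgG, and Psmd2 to 0.13, Psme4 to 0.021 and Psmb8 to -0.022 between the metastatic groups. Without the suffixed probe sets, Psma3 came to 0.053 under IgG and Psmd13 to 0.027 between the metastatic groups. With array weights, Psma3 came to 0.011 under IgG and Psmd4 to 0.0066 between the metastatic groups. Without single arrays, Psmd11 ranged from -0.11 to 0.038 and Psma3 from -0.057 to 0.053 under IgG, Psmd4 from -0.057 to 0.041 between the metastatic groups and Psmb10 from -0.0052 to 0.062 under anti-VEGF. The causes of these changes were not tested.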
